A study of Rattus norvegicus with 18 samples.

Results

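The matricellular genes Thbs1, Thbs2, Sparc, Sparcl1 and Spp1 and the receptor genes Cd44, Itgb1, Itga5 and Itgav were followed in mixed neuronal and glial cultures of rat cortex. The members were fixed by name, and a row of the deposited tables was taken when its gene name was the same as that of a member. All 9 members were found, each in 1 row among the 31463 rows of every table, and all 9 passed the filter on low counts. The primary cultures came from newborn Wistar rats and had received cytosine arabinoside, a drug that holds back dividing glia. Excitotoxicity, the damage of neurons by excess glutamate, was induced on day 10 in vitro with glutamate at 100 µM. RNA was collected 4 h after the model. The 18 libraries form 6 groups of 3. Control cultures received no glutamate, and Glutamate cultures received glutamate alone. Memantine cultures received 100 µM memantine, which blocks NMDA receptors. The Memantine label does not name glutamate, and the series' design text places this group within the glutamate model. The groups Glutamate_vesicles, Glutamate_secret and Glutamate_BPC were given material secreted by glial progenitor cells on the day before glutamate, and they are called the 3 preparations here. The progenitor cells were derived from human induced pluripotent stem cells, whereas reads were assigned to rat transcripts. Extracellular vesicles were the preparation in Glutamate_vesicles. A further preparation was the total secretome and another its proteins of 3 to 100 kDa, and the names Glutamate_secret and Glutamate_BPC are used as given because the labels do not pair them with these materials. Nothing in the labels says that libraries of a group came from separate animals, and p-values then measure the spread between these libraries, which may be technical.

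Matricellular proteins are secreted into the space around cells, where they change how cells hold on to the matrix without forming its scaffold. Thrombospondins, encoded by Thbs1 and Thbs2, are released by astrocytes and promote the formation of synapses in culture. Hevin, encoded by Sparcl1, also promotes synapse formation, while SPARC, the product of Sparc, counteracts hevin. Osteopontin, encoded by Spp1, is a secreted phosphoprotein with an RGD motif and is made in the injured brain mainly by microglia and macrophages. CD44 is a surface receptor for hyaluronan and osteopontin. Integrins are receptors built of an alpha and a beta chain, and the integrin beta 1 chain (Itgb1) pairs with integrin alpha 5 (Itga5) to bind fibronectin and with integrin alpha V (Itgav) to bind ligands with an RGD motif, osteopontin among them.

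Library totals ranged from 8409574 to 17206354 estimated counts. Ribosomal RNA (rRNA) took between 3.04% of the counts in Glutamate_secret 2 (95% Wilson interval 3.03% to 3.05%, counting error only) and 43.0% in Control 1 (42.98% to 43.05%), and Control 1 and Glutamate_secret 3 had the highest shares. Of the fixed cell type markers, all 7 neuronal, all 7 astrocytic and all 7 microglial genes were detected in every group. The summed level of the 7 neuronal markers was 2035 to 2726 CPM in Control, 639 to 3337 CPM in Memantine and 504 to 1108 CPM in the other groups, and none of the 12 libraries there reached the lowest Control library. Summed microglial markers were at 37.7 to 98.5 CPM in Control, 27.2 to 359 CPM in Memantine, 85.9 to 299 CPM in Glutamate, 50.9 to 138 CPM in Glutamate_vesicles, 69.6 to 558 CPM in Glutamate_secret and 101 to 399 CPM in Glutamate_BPC. Summed astrocytic markers were at 2622 to 6038 CPM in Control and 3388 to 12711 CPM elsewhere. Summed markers of the oligodendrocyte lineage were at 367 to 631 CPM in Control, 342 to 727 CPM in Memantine, 680 to 920 CPM in Glutamate, 820 to 1345 CPM in Glutamate_vesicles, 664 to 1241 CPM in Glutamate_secret and 690 to 1097 CPM in Glutamate_BPC. The summed level of fibroblast and mural markers stayed between 3.71 and 20.3 CPM, with Dcn and Rgs5 at 0 in Control. Summed endothelial markers stayed between 0.315 and 4.21 CPM. The part of these shifts in the results for the members was not tested. In bulk RNA, fewer cells of a type and less RNA per cell cannot be told apart.

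The RefSeq promoter table for GRCr8 held 8 of the 9 members, and Thbs2 is named only. The 250 bases before the annotated start are printed 5′ to 3′ on the gene's strand for Spp1, Itga5, Cd44 and Thbs1, because these members had the highest fitted differences from Control in the groups exposed to glutamate without memantine. Positions are given on GRCr8, whereas the counts were made on rn6 transcripts. They are chr14:5619805-5620054 (minus strand) for Spp1, chr7:136381306-136381555 (minus strand) for Itga5, chr3:109699425-109699674 (minus strand) for Cd44 and chr3:125510000-125510249 (plus strand) for Thbs1. Capitals mark matches to the motifs that were searched on both strands.
Spp1: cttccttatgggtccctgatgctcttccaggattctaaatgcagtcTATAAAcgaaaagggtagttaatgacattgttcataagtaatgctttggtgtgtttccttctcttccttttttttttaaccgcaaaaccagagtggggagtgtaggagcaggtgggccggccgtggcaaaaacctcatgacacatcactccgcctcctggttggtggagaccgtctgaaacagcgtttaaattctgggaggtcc
Itga5: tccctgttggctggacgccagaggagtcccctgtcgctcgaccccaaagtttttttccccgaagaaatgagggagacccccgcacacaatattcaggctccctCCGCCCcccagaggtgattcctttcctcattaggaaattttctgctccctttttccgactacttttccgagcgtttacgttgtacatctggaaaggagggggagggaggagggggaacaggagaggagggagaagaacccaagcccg
Cd44: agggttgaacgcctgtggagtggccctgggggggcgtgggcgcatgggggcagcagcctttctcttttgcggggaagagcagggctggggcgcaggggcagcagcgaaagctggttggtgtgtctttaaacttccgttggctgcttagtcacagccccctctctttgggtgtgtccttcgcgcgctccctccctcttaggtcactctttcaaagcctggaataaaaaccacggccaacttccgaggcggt
Thbs1: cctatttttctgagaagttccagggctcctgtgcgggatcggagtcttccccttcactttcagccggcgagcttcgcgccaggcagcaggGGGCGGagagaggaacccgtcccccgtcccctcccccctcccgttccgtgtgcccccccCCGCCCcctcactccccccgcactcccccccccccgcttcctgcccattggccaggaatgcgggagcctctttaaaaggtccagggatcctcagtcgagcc
The motifs were the GC box GGGCGG, the TATA box TATAAA, the AP-1 site TGANTCA and the cAMP response element TGACGTCA. Among 33469 promoters of the same length, they occurred in 30.5%, 12.9%, 6.34% and 1.59%, respectively. In Spp1, TATAAA starts at position -204, counted from the annotated start. Itga5 has 1 GC box and Thbs1 has 2, and in the promoters not printed Itgb1 has 4, Itgav has 2, and Sparc and Sparcl1 have no match. Cd44 has no match, and no member had the AP-1 site or the cAMP response element in this window. A match describes letters only and says nothing of a factor at work there.

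Of the 9 members, none passed an adjusted p below 0.05 in edgeR's quasi-likelihood test in any of the 13 comparisons between groups or of the 2 F tests. The smallest adjusted p was 0.0605, for Itga5 in the 4 glutamate groups against Control. The 4 glutamate groups are Glutamate and the 3 preparations, that is, all groups exposed to glutamate without memantine. Over the 117 tests of a member in a comparison, 18 gave an unadjusted p below 0.05, each with the higher level outside Control or, for Itga5 in Glutamate_vesicles against Glutamate, in Glutamate_vesicles. Over these and the F tests, DESeq2 called 5 results and edgeR's likelihood-ratio test, the test named in the paper's methods, 3. All of these were for Itga5 or Cd44. A fit with the rRNA share as covariate called 9 results, Itgb1 among them. A fit with a shared effect of each replicate number, the replicate block, called 10, Spp1 among them. In the 4 glutamate groups against Control, 0 of 9 members were called among 3.96% of the 14398 tested genes, 0.257% called higher and 3.7% called lower. An unadjusted p below 0.05 with a higher level was obtained for 4 of 9 members (Itga5, Cd44, Sparc and Spp1) against 4.87% of all genes. No member had ranges without overlap over these groups (1.77% of all genes did, with the higher level outside Control). The median log2 fold change was 0.98 over the 9 members and 0.04 over all tested genes.

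**Figure D1:**
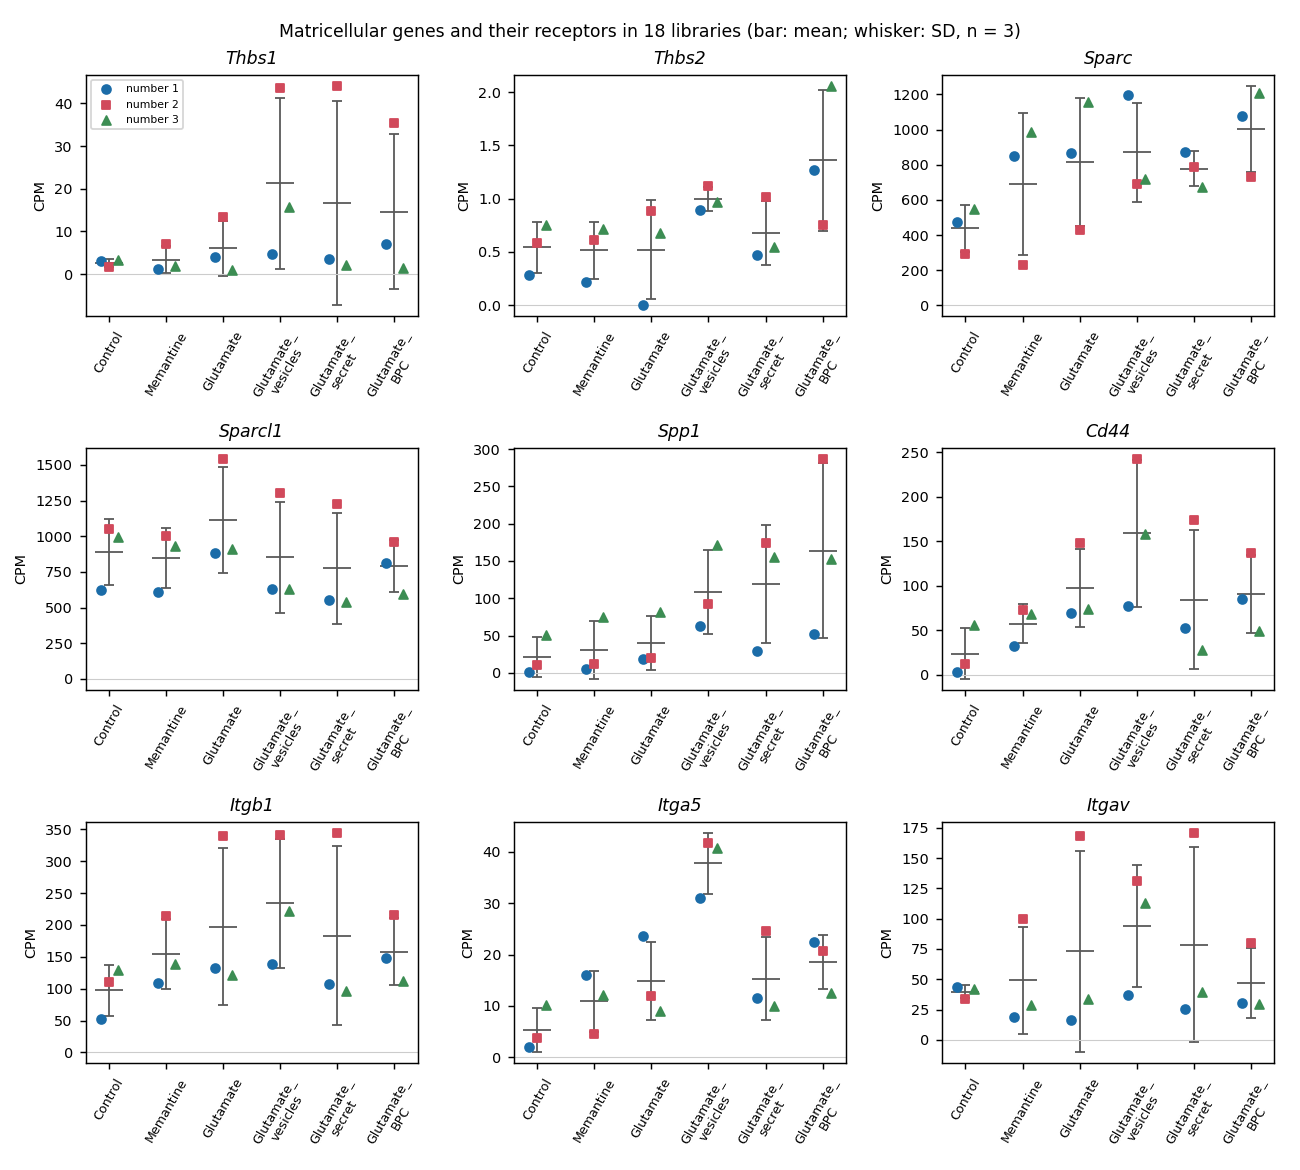
Normalised read counts in CPM (linear y axis, a scale for each gene) of the 9 genes in 18 libraries of 6 groups; symbols show the replicate number, bars the group mean and whiskers the SD (n = 3). The 3 Glutamate_vesicles libraries for Itga5 sit between 30.9 and 41.6 CPM, above the 15 others, whereas the highest Thbs1 values, 35.3 to 44.2 CPM, are the number 2 libraries of the 3 preparations.

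Spp1, encoding osteopontin, had its lowest level in Control and its highest in the 3 preparations. CPM is the read count scaled to the library size, with the TMM correction for composition. The libraries Control 1, 2 and 3 had 1.71, 11.1 and 51.2 CPM, which rest on a summed count of 1183. Of this count, 6 fell in Control 1 and 950 in Control 3. Memantine 1, 2 and 3 had 4.83, 12.1 and 75.2 CPM, and Glutamate 1, 2 and 3 had 19.0, 20.4 and 82.0 CPM. Libraries of a group thus differed widely, and number 3 was the highest in each of these groups. For numbers 1, 2 and 3, the values were 62.7, 92.2 and 172 CPM in Glutamate_vesicles, 29.0, 173 and 156 CPM in Glutamate_secret, and 52.1, 287 and 153 CPM in Glutamate_BPC. Within every replicate number, Control was lowest, Memantine followed, Glutamate came next and each preparation was above Glutamate. The means were 21.3 ± 26.3, 30.7 ± 38.7, 40.5 ± 36.0, 109 ± 56.4, 119 ± 78.8 and 164 ± 118 CPM (SD, n = 3) in the order Control, Memantine, Glutamate, Glutamate_vesicles, Glutamate_secret and Glutamate_BPC. No neighbours in this order were apart by more than their spread, and only Glutamate_vesicles and Glutamate_BPC had ranges clear of Control.

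Against Control, Spp1 was higher in the 4 glutamate groups by 2.16 ± 1.00 (log2 fold change ± SE; adjusted p = 0.297 in edgeR's quasi-likelihood test, which gives all adjusted p values below unless another tool is named). It was higher in 12 of 12 pairs of libraries with the same number, a pattern shown by 4.83% of all tested genes. Without Control 3 this difference was 3.84, and without Control 1 it was 1.63. Without Control 1 and Glutamate_secret 3, it was 1.57 with an adjusted p of 0.606. Taken separately, the difference from Control was 0.91 ± 1.10 for Glutamate, 2.33 ± 1.14 for Glutamate_vesicles, 2.47 ± 1.14 for Glutamate_secret and 2.92 ± 1.17 for Glutamate_BPC. A fit with the replicate block over all 18 libraries called Spp1 higher in Glutamate_vesicles than in Control (log2 fold change 3.05, adjusted p = 0.0288). That fit called 0.965% of all genes higher. In a check by correlation, the replicate numbers paired these groups but no other group with Control. That check cannot tell a shared origin from like RNA quality. These comparisons share the Control libraries. The 7 microglial markers all had a higher level in the 4 glutamate groups than in Control (median log2 fold change 1.20, 0 called, 1 at an unadjusted p below 0.05). For number 2 libraries, their sums were 98.5 CPM in Control, 35.2 CPM in Memantine, 85.9 CPM in Glutamate, 101 CPM in Glutamate_vesicles, 123 CPM in Glutamate_secret and 267 CPM in Glutamate_BPC. In the same order, the sums were 37.7, 27.2, 107, 50.9, 69.6 and 101 CPM for number 1. For number 3 they were 96.9, 359, 299, 138, 558 and 399 CPM. Thus all 3 preparations of number 1 and Glutamate_vesicles 3 had lower marker sums than the Glutamate library of their number, whereas their Spp1 was higher. The part of microglia in the values of Spp1 was not tested.

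**Figure D2:**
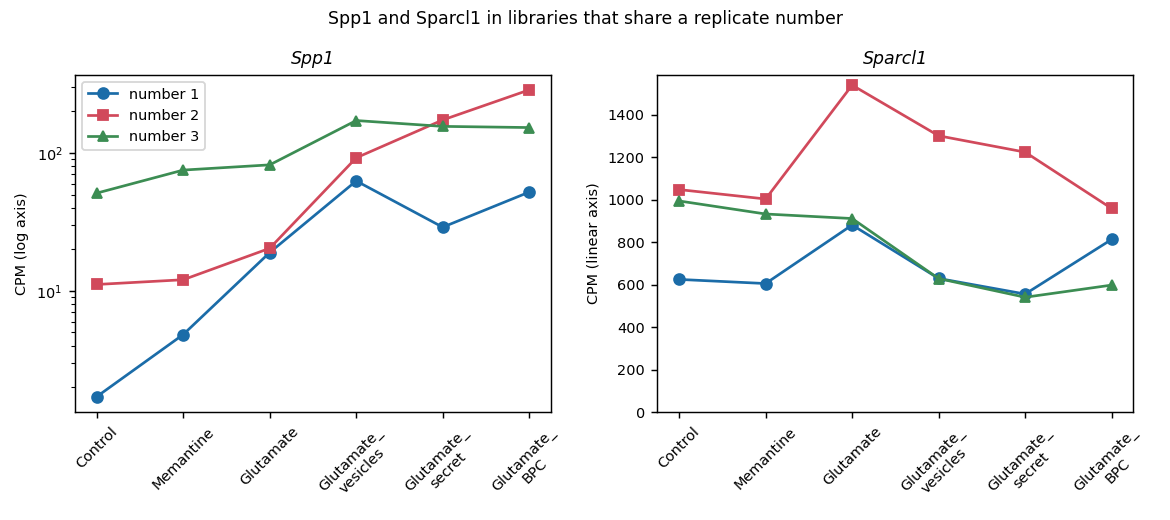
Normalised read counts of Spp1 (CPM, log axis) and Sparcl1 (CPM, linear axis) in the 6 groups; each line joins libraries that share a replicate number. In all 9 libraries of the 3 preparations, Spp1 lies above the Glutamate library of the same number and Sparcl1 below it. For both genes the range of each preparation overlaps with that of Glutamate.

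The 3 preparations were then set against Glutamate alone, which shows whether the secreted material was accompanied by a difference in these genes under the same glutamate exposure. Spp1 was 1.67 ± 0.99 higher on the log2 scale in the mean of the 3 preparations than in Glutamate (adjusted p = 1 in edgeR). The level was higher in 9 of 9 same-numbered pairs, as it was for 2.03% of all tested genes. By group, the difference was 1.43 ± 1.11 for Glutamate_vesicles, 1.56 ± 1.11 for Glutamate_secret and 2.02 ± 1.13 for Glutamate_BPC, and the F test among the 3 preparations gave an adjusted p of 1. Without Glutamate 3 the difference of the mean was 2.71, and without Glutamate 1 it was 1.33. No member was called against Glutamate with any of the 3 preparations or their mean. In the comparison with their mean, 0% of the 14398 genes were called, and 1.38% had an unadjusted p below 0.05.

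Against Memantine, Spp1 was higher in the 3 preparations by 2.07 ± 1.01 (adjusted p = 0.424), where 1.36% of all genes were called. It was higher in the 4 glutamate groups by 1.65 ± 0.97 (adjusted p = 0.591), where 2.39% of all genes were called. In the check by correlation, the replicate numbers paired Memantine with each of the 4 glutamate groups, but not with Control. They did not pair all of those groups with each other. The fit with the replicate block, which used all 18 libraries, called Spp1 higher in both comparisons. There the difference was 2.67 (adjusted p = 0.0226) for the 3 preparations, with 0.361% of all genes called higher, and 2.22 (adjusted p = 0.0369) for the 4 glutamate groups, with 0.153% called higher. No other member was called against Memantine in either fit.

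Itga5, the alpha chain of the fibronectin receptor, had its highest levels in Glutamate_vesicles. Its values for numbers 1, 2 and 3 were 2.00, 3.68 and 10.2 CPM in Control, 16.1, 4.50 and 12.1 CPM in Memantine, and 23.5, 11.999 and 9.05 CPM in Glutamate. They were 30.9, 41.6 and 40.7 CPM in Glutamate_vesicles, 11.5, 24.6 and 9.96 CPM in Glutamate_secret, and 22.4, 20.7 and 12.5 CPM in Glutamate_BPC. Each Glutamate_vesicles library was higher than any of the 15 other libraries. The value of Control 1 rests on a count of 7. The order of the means was Control (5.29 ± 4.32 CPM), Memantine (10.9 ± 5.89), Glutamate (14.9 ± 7.64), Glutamate_secret (15.3 ± 8.02), Glutamate_BPC (18.5 ± 5.30) and Glutamate_vesicles (37.8 ± 5.95; SD, n = 3). Ranges of neighbours in this order overlapped except for the last step, from Glutamate_BPC to Glutamate_vesicles.

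Itga5 differed from Control by 2.80 ± 0.62 on the log2 scale in Glutamate_vesicles (adjusted p = 0.162). With the replicate block, the difference was 2.76 and the adjusted p was 0.0284. That fit used all 18 libraries with a shared effect of each replicate number. By correlation, the numbers pair Control with Glutamate_vesicles, but they do not pair all groups in that fit. In Glutamate_vesicles against Control, 0 of 9 members and 0.0139% of all genes were called without the block. An unadjusted p below 0.05 with a higher level was found for Itga5, Cd44, Thbs1 and Itgb1, 4 of 9 members, against 3.99% of all genes. The ranges of 7 of 9 members lay wholly above Control, against 9.72% of all genes, and the exceptions were Sparcl1 and Itgav. The other differences of Itga5 from Control were 1.45 ± 0.60 in Glutamate, 1.51 ± 0.60 in Glutamate_secret, 1.77 ± 0.60 in Glutamate_BPC and 1.00 ± 0.59 in Memantine. None of these passed adjustment, the adjusted p being 0.518, 0.335, 0.303 and 1, respectively.

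Itga5 in the 4 glutamate groups differed from Control by 1.88 ± 0.53 (adjusted p = 0.0605) and was higher in 10 of 12 same-numbered pairs. Without Control 3, the difference was 2.77 with an adjusted p of 0.0355, and without the libraries of highest rRNA share, Control 1 and Glutamate_secret 3, it was 1.59 with an adjusted p of 0.231. Against Glutamate, Itga5 was 1.35 ± 0.59 higher in Glutamate_vesicles (adjusted p = 1), with ranges that did not overlap. Such ranges without overlap in the higher direction were found for Itga5 and Thbs2, 2 of 9 members, against 2.89% of all genes, and an unadjusted p below 0.05 in that direction for 0.479% of them. The difference from Glutamate was 0.06 ± 0.58 in Glutamate_secret and 0.32 ± 0.58 in Glutamate_BPC. The F test among the 3 preparations gave an adjusted p of 1 for all 9 members, with 0% of all genes called and 0.382% at an unadjusted p below 0.05. Over all 6 groups the F test gave an adjusted p of 0.263 for Itga5, and it called 0.00695% of all genes, with 7.75% at an unadjusted p below 0.05.

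Itgb1, the beta chain shared by many integrins, had a range of 52.0 to 129 CPM in Control, 109 to 215 CPM in Memantine, 121 to 339 CPM in Glutamate, 139 to 341 CPM in Glutamate_vesicles, 96.1 to 345 CPM in Glutamate_secret and 111 to 215 CPM in Glutamate_BPC. In Memantine, Glutamate and each of the 3 preparations the number 2 library was the highest. The range was clear of Control in Glutamate_vesicles and overlapped with it elsewhere. Its difference from Control in the 4 glutamate groups was 0.97 ± 0.48 (adjusted p = 0.336), with the higher level in 9 of 12 same-numbered pairs. Differences from Glutamate were small beside their errors, at 0.24 ± 0.57 in Glutamate_vesicles, -0.11 ± 0.57 in Glutamate_secret and -0.32 ± 0.57 in Glutamate_BPC.

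Itgav, the alpha V chain that binds RGD ligands, was even in Control, with 33.7 to 44.0 CPM, and uneven in the other groups. Number 2 libraries had 99.8 CPM in Memantine, 169 CPM in Glutamate, 131 CPM in Glutamate_vesicles, 171 CPM in Glutamate_secret and 80.2 CPM in Glutamate_BPC. The number 1 and 3 libraries of these groups had 16.1 to 39.1 CPM, apart from 113 CPM in Glutamate_vesicles 3. All 5 number 1 libraries outside Control were lower than Control 1. The difference from Control in the 4 glutamate groups was 0.83 ± 0.73 (adjusted p = 0.679), with the higher level in 5 of 12 same-numbered pairs. The number 2 libraries also had low shares of rRNA, from 3.04% to 8.15%, and the part of this in the values was not tested.

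Cd44, the hyaluronan and osteopontin receptor, was lower in Control than in Glutamate in every library. The values for numbers 1, 2 and 3 were 3.14, 11.6 and 55.9 CPM in Control, 31.8, 72.1 and 67.8 CPM in Memantine, and 69.7, 148 and 73.4 CPM in Glutamate. They were 77.1, 242 and 158 CPM in Glutamate_vesicles, 51.8, 173 and 27.7 CPM in Glutamate_secret, and 85.0, 137 and 49.1 CPM in Glutamate_BPC. Thus the ranges of Glutamate and Glutamate_vesicles were clear of Control, while Glutamate_secret 3 and Glutamate_BPC 3 were below Control 3. For Control 1, the count behind the value was 11. Cd44 was the only member with a range clear of Control in Glutamate, 1 of 9 against 4.48% of all genes. The order of the means was Control (23.6 ± 28.3 CPM), Memantine (57.2 ± 22.1), Glutamate_secret (84.2 ± 78.0), Glutamate_BPC (90.3 ± 44.1), Glutamate (96.9 ± 44.0) and Glutamate_vesicles (159 ± 82.6; SD, n = 3), and ranges of all neighbours overlapped.

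In Glutamate against Control, Cd44 differed by 2.03 ± 0.85 (adjusted p = 0.534 in edgeR). There, 0 of 9 members and 0% of all genes were called, and Cd44 and Itga5 had an unadjusted p below 0.05 with a higher level, against 2.13% of all genes. The difference of Cd44 from Control was 2.74 ± 0.88 in Glutamate_vesicles (adjusted p = 0.23), 1.83 ± 0.85 in Glutamate_secret, 1.92 ± 0.85 in Glutamate_BPC and 1.27 ± 0.84 in Memantine. For the 4 glutamate groups it was 2.13 ± 0.76 (adjusted p = 0.147), with the higher level in 10 of 12 same-numbered pairs. Without Control 3 this difference was 3.77 with an adjusted p of 0.0396, without Control 1 it was 1.63, and without Control 1 and Glutamate_secret 3 it was 1.73 with an adjusted p of 0.314. In Glutamate alone, leaving out a library moved the difference from Control between 1.52 (without Control 1) and 3.67 (without Control 3). Against Glutamate, Cd44 was between 0.20 lower (Glutamate_secret, SE 0.82) and 0.71 higher (Glutamate_vesicles, SE 0.83) on the log2 scale, and Memantine differed from Glutamate by -0.76 ± 0.83.

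Thbs1, encoding thrombospondin 1, reached its highest levels in the number 2 libraries of the 3 preparations. For numbers 1, 2 and 3, it had 3.14, 1.67 and 3.39 CPM in Control, 1.18, 7.11 and 1.94 CPM in Memantine, and 4.00, 13.3 and 0.973 CPM in Glutamate. It had 4.69, 43.5 and 15.8 CPM in Glutamate_vesicles, 3.47, 44.2 and 2.17 CPM in Glutamate_secret, and 7.06, 35.3 and 1.52 CPM in Glutamate_BPC. Only Glutamate_vesicles was clear of Control, and the number 3 libraries of Glutamate, Glutamate_secret and Glutamate_BPC were below Control 3. The count behind these values was low in most libraries, with 108 reads over the Control group and 1456 over Glutamate_vesicles. The difference from Control was 2.31 ± 1.17 in the 4 glutamate groups (adjusted p = 0.348) and 2.98 ± 1.34 in Glutamate_vesicles (adjusted p = 0.399). With the replicate block, the difference was 1.25 (adjusted p = 0.306) and 2.23 (adjusted p = 0.145), respectively. Against Glutamate, the mean of the 3 preparations was 1.499 ± 1.10 higher (adjusted p = 1), with the higher level in 8 of 9 same-numbered pairs. This difference was 0.64 without Glutamate_secret 2 and 2.82 without Glutamate 2.

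Thbs2, encoding thrombospondin 2, was near the limit of detection. Its counts ran from 0 in Glutamate 1, where a count of 0 allows up to 0.387 CPM, to 28 in Glutamate_vesicles 2. Levels were 0.286 to 0.754 CPM in Control, 0.215 to 0.719 CPM in Memantine, 0 to 0.889 CPM in Glutamate, 0.897 to 1.12 CPM in Glutamate_vesicles, 0.473 to 1.02 CPM in Glutamate_secret and 0.749 to 2.06 CPM in Glutamate_BPC. The Glutamate_vesicles libraries were clear of both Control and Glutamate by a narrow margin. The difference from Control in the 4 glutamate groups was 0.55 ± 0.68 (adjusted p = 0.793).

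Sparc, encoding SPARC, was higher than Control in all same-numbered pairs with the 4 glutamate groups. The values for numbers 1, 2 and 3 were 474, 291 and 550 CPM in Control, 848, 231 and 988 CPM in Memantine, and 864, 431 and 1156 CPM in Glutamate. They were 1196, 693 and 721 CPM in Glutamate_vesicles, 871, 788 and 674 CPM in Glutamate_secret, and 1078, 730 and 1206 CPM in Glutamate_BPC. The ranges of the 3 preparations were clear of Control, and Memantine 2 was the lowest of the 18 libraries. In Glutamate_secret, Sparc was the only member with such a range, 1 of 9 against 6.88% of all genes. In Glutamate_BPC, Sparc, Spp1 and Itga5 had it, 3 of 9 against 12.2% of all genes.

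Sparc in the 4 glutamate groups differed from Control by 0.98 ± 0.44 (adjusted p = 0.273). The level was higher in 12 of 12 same-numbered pairs, as it was for 4.83% of all genes. These pairs share the Control libraries, which the numbers pair, by correlation, with Glutamate_vesicles only. The difference of Sparc from Control was 0.90 ± 0.52 in Glutamate, 0.99 ± 0.52 in Glutamate_vesicles, 0.83 ± 0.52 in Glutamate_secret, 1.20 ± 0.52 in Glutamate_BPC (adjusted p = 0.400) and 0.65 ± 0.52 in Memantine. From Glutamate, the 3 preparations differed by 0.11 ± 0.42 in their mean. In Glutamate_BPC against Control 0% of all genes were called, and an unadjusted p below 0.05 with a higher level was obtained for Itga5, Spp1, Sparc and Cd44, 4 of 9 members, against 3.92%. In Glutamate_secret against Control 0% were called as well, and the unadjusted count was 3 of 9 (Itga5, Spp1 and Cd44) against 4.14%.

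Sparcl1, encoding hevin, had the smallest difference from Control of the 9 members in the mean of the 4 glutamate groups. The values for numbers 1, 2 and 3 were 625, 1048 and 995 CPM in Control, 606, 1004 and 933 CPM in Memantine, and 881, 1541 and 912 CPM in Glutamate. They were 630, 1302 and 629 CPM in Glutamate_vesicles, 556, 1225 and 541 CPM in Glutamate_secret, and 813, 959 and 598 CPM in Glutamate_BPC. Ranges of all groups overlapped with Control, and in each of the 6 groups the number 2 library was the highest. The difference from Control was -0.03 ± 0.36 in the 4 glutamate groups (adjusted p = 0.986) and 0.32 ± 0.46 in Glutamate. Against Glutamate, Sparcl1 was 0.46 ± 0.37 lower in the mean of the 3 preparations (adjusted p = 1), with the lower level in 9 of 9 same-numbered pairs, as it was for 3.49% of all genes. Spp1 and Sparcl1, which both lie on rat chromosome 14, were thus higher and lower than Glutamate, respectively, in every pair, and neither difference passed the test.

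Since Sparc counteracts hevin, the ratio of Sparc to Sparcl1 counts was formed within each library, where scaling between libraries has no effect. The log2 ratio was -1.03 ± 0.74 in Control, -0.52 ± 1.40 in Memantine, -0.51 ± 1.17 in Glutamate, 0.07 ± 0.92 in Glutamate_vesicles, 0.11 ± 0.67 in Glutamate_secret and 0.34 ± 0.70 in Glutamate_BPC (SD, n = 3). In every group the number 2 library had the lowest ratio, from -2.12 in Memantine to -0.39 in Glutamate_BPC. The ratio was higher by 1.04 in the 12 libraries of the 4 glutamate groups than in the 3 of Control (two-sided exact permutation test, p = 0.0923, adjusted p = 0.5). Over the 15 omissions of a library the difference lay between 0.63 (without Control 2, exact permutation p = 0.352) and 1.36 (without Control 1, exact permutation p = 0.0879), and the exact permutation p was below 0.05 in 1 of them (1.21 without Glutamate 2, unadjusted p = 0.033). Between Glutamate_BPC and Control the difference was 1.38 (exact permutation p = 0.1, the smallest p that 3 libraries against 3 allow), with ranges that only just did not overlap. The exact permutation p was at least 0.2 for the other 8 comparisons of this family, and the adjusted p (Benjamini-Hochberg over the 10 comparisons) was 0.5 or more for all of them.

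**Figure D3:**
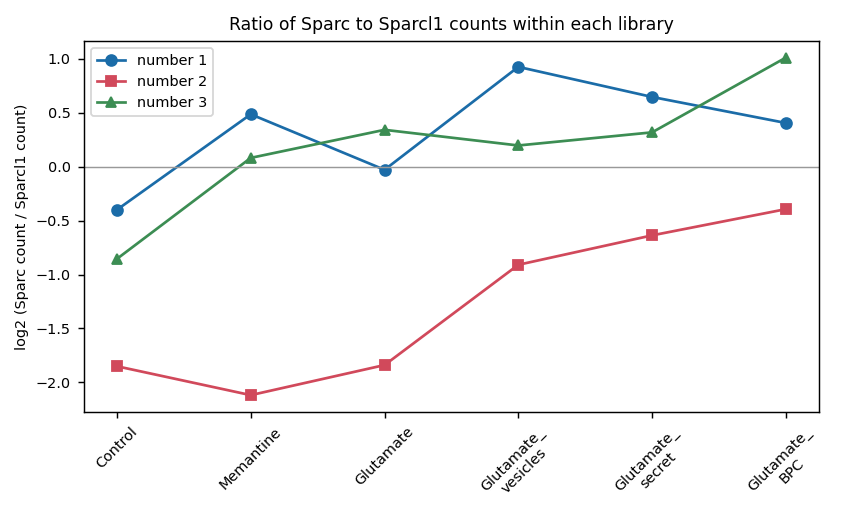
Log2 ratio of the Sparc count to the Sparcl1 count within each library (y axis) in the 6 groups; lines join libraries of the same replicate number and 0 marks equal counts. All 3 Control libraries lie below 0, while in each of the 3 preparations numbers 1 and 3 lie above 0 and number 2 below it.

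Memantine was compared with Control and with Glutamate. Against Control, 7 of 9 members had a positive log2 fold change with a median of 0.51 over the members and 0.10 over all genes, and 0% of genes were called. No member had an unadjusted p below 0.05 there, as did 1.12% of all genes. The highest differences were those of Cd44 (1.27 ± 0.84) and Itga5 (1.00 ± 0.59), and the ranges of all 9 members overlapped with Control, whereas 1.16% of all genes lay wholly above it. Against Glutamate, all 9 members had a negative log2 fold change, from -0.05 for Thbs2 to -0.83 for Thbs1, with a median of -0.40 over the members and -0.02 over all genes. The ranges of all 9 overlapped with Glutamate (1.13% of all genes lay wholly below it), none had an unadjusted p below 0.05 in either direction (5.08% of all genes did), and 0% of genes were called. Spp1, Cd44 and Sparc were lower in Memantine than in Glutamate in 3 of 3 same-numbered pairs, as were 17% of all genes.

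**Figure D4:**
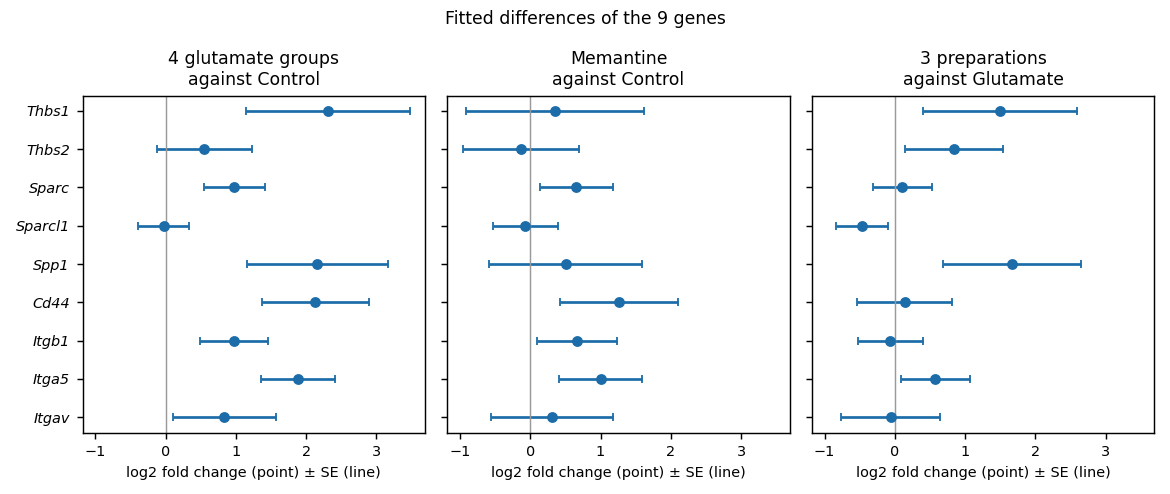
Log2 fold changes (x axis; points) with their SE (lines) of the 9 genes in 3 comparisons, namely the 4 glutamate groups against Control, Memantine against Control, and the mean of the 3 preparations against Glutamate. Against Control the points reach 2.31 (Thbs1) in the 4 glutamate groups, and Sparcl1 sits at -0.03.

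The other genes of these families were taken from lists chosen by name, with earlier results of these data known. The shares of called genes in these lists are therefore descriptions. Among 27 other matricellular genes, 26 were in the tables and 20 were tested. Against Control, 6 of the 20 in the 4 glutamate groups passed the adjusted p, 3 higher and 3 lower, beside 3.96% of all genes. The median log2 fold change was 0.77 over the list and 0.04 over all genes. By the smallest p of the 6-group F test, Ccn2, Spock2 and Spock1 are named. Ccn1, Ccn3 and Ibsp are named because they were also called, a choice made after their values were seen.

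Ccn2 and Ccn1 encode secreted CCN proteins that bind integrins. Ccn2 rose from 4.42 to 6.23 CPM in Control to 4.09 to 113 CPM in the 4 glutamate groups, in which Glutamate 3 was the only library inside or below the Control range, by 2.58 ± 0.59 on the log2 scale (adjusted p = 0.025). It also rose against Memantine (3.74 to 5.001 CPM), by 2.94 ± 0.61 (adjusted p = 0.0269). Ccn1 rose from 3.98 to 14.3 CPM in Control to 36.9 to 211 CPM in the 4 glutamate groups, by 3.803 ± 0.73 (adjusted p = 0.0116), and the ranges did not overlap. Ibsp, encoding bone sialoprotein, which has an RGD motif like osteopontin, had 1 read in the Control group and at most 1.81 CPM elsewhere, and its adjusted p was 0.0494. Ibsp kept its call in 1 of 15 fits that left out a library, so that its call rests on few reads.

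The 3 lower genes were Spock1, Spock2 and Ccn3. Spock1 and Spock2 encode testicans, proteoglycans of the SPARC family that neurons express. Spock2 fell from 199 to 351 CPM in Control to 49.1 to 78.4 CPM in the 4 glutamate groups, with a log2 fold change of -2.07 ± 0.33 (adjusted p = 0.0067). Spock1 fell from 12.7 to 14.6 CPM in Control to 0.724 to 3.97 CPM, with a log2 fold change of -2.88 ± 0.52 (adjusted p = 0.0099). Ccn3 fell from 2.28 to 3.02 CPM to 0.340 to 1.14 CPM, with a log2 fold change of -2.15 ± 0.44 (adjusted p = 0.0135). For these genes the ranges of the 4 glutamate groups did not overlap with Control. All of them also fell against Memantine, with log2 fold changes of -1.83 (Spock2), -2.96 (Spock1) and -1.80 (Ccn3). Memantine was uneven here, as Memantine 3 had 53.3 CPM (Spock2), 2.08 CPM (Spock1) and 0.862 CPM (Ccn3), inside the ranges of the 4 glutamate groups. Memantine 1 and 2 were above those ranges. Thus, within the family of SPARC, the relatives Spock1 and Spock2 were lower than Control while Sparc and Sparcl1 were not called. Further relatives in the list were not called either. Their log2 fold changes were -2.06 ± 0.65 for Spock3 (adjusted p = 0.0941), 0.99 ± 0.31 for Smoc1 (adjusted p = 0.0926) and -1.46e-06 ± 0.48 for Fstl1. The neuronal marker Tubb3 was also lower than Control in these groups (-2.04 ± 0.29, adjusted p = 0.0046), and 7 of 7 neuronal markers had a negative log2 fold change with a median of -1.65. The part of the neuronal shift in the values of these genes was not tested.

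The calls of the other matricellular genes depended on Control libraries. Without Control 2, the adjusted p was 0.0887 for Ccn1, 0.115 for Ccn2, 0.0963 for Ccn3 and 0.0596 for Spock1, and without Control 3 it was 0.0516 for Ccn1, 0.0976 for Ccn2 and 0.0601 for Ccn3. Without Control 1 it was 0.0864 for Ccn2. Without Control 1 and Glutamate_secret 3 it was 0.107 for Ccn2. Spock2 stayed called in 15 of 15 such fits.

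**Figure D5:**
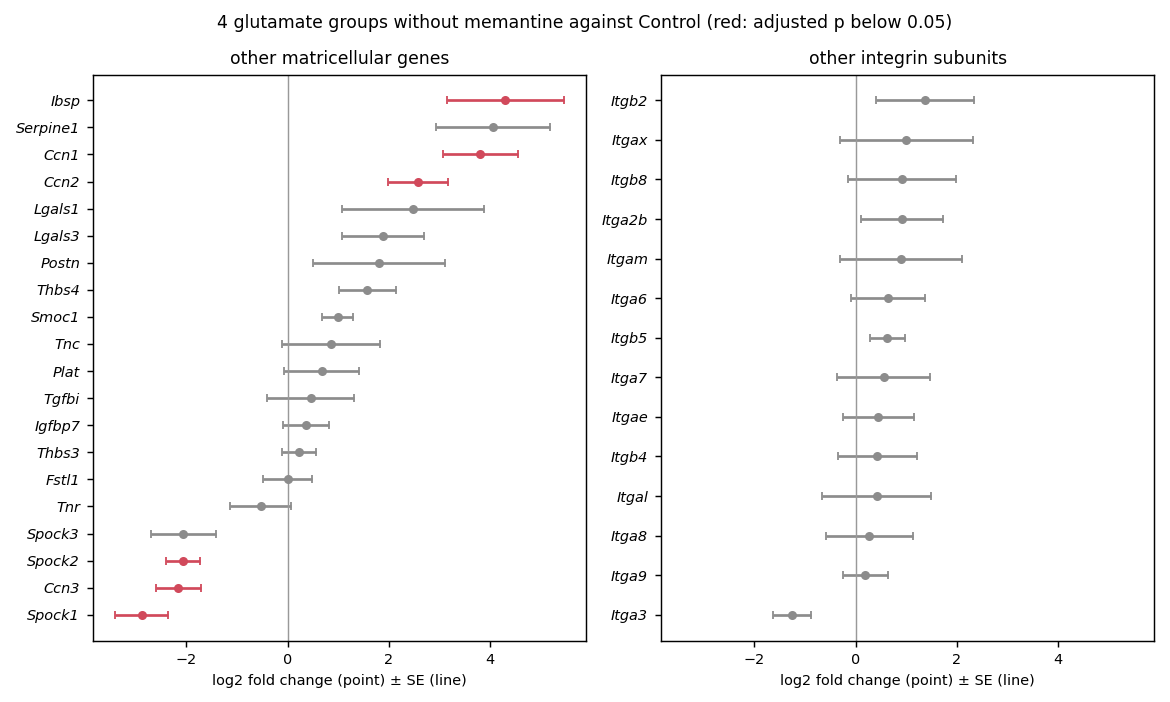
Log2 fold change (x axis; points) with SE (lines) in the 4 glutamate groups against Control for the 20 tested other matricellular genes and the 14 tested other integrin subunits; red marks an adjusted p below 0.05. In the left panel 3 genes on either side are red and in the right panel none; the value of Ibsp rests on 1 read in Control and its position depends on the prior count.

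Of 23 other integrin subunits, 14 were tested, and 0 were called in the 4 glutamate groups against Control (3.96% of all genes were), with a median log2 fold change of 0.59 beside 0.04 over all genes. Among them, 0 had an unadjusted p below 0.05 with a higher level and 1 with a lower level, Itga3, the alpha 3 chain that pairs with Itgb1 in laminin receptors. Itga3 had 5.14 to 18.9 CPM in Control and 2.72 to 8.99 CPM in the 4 glutamate groups, a difference of -1.26 ± 0.38 (adjusted p = 0.0793). Itgb5, which pairs with Itgav, differed by 0.63 ± 0.34, and Itgb2, the beta chain of leukocytes and microglia, by 1.37 ± 0.97, and neither passed.

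Other receptors and partners of the members numbered 16, of which 14 were tested. Against Control, 1 of 14 was called in the 4 glutamate groups beside 3.96% of all genes, and the median log2 fold change of the list was 0.06 beside 0.04 over all genes. The called gene was Msn, encoding moesin, which links CD44 to actin. Msn rose from 24.05 to 62.2 CPM in Control to 70.8 to 211 CPM, by 1.41 ± 0.33 (adjusted p = 0.0268), with ranges that did not overlap. Without Control 2 the adjusted p was 0.167, without Control 3 it was 0.0664, and without Glutamate_vesicles 3 it was 0.0528. With both libraries of highest rRNA share left out it was 0.061. Cacna2d1, encoding the calcium channel subunit that binds thrombospondins, was called against Memantine only, with a log2 fold change of -3.25 ± 0.79 (adjusted p = 0.0417), and had -2.11 ± 0.82 against Control (adjusted p = 0.187). Its level in Memantine was 0.934 to 82.1 CPM, so that this group was uneven.

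Of 18 genes of integrin adhesion and signalling, 17 were tested and 0 were called against Control in the 4 glutamate groups, beside 3.96% of all genes. An unadjusted p below 0.05 with a higher level was found for 5 of 17 (4.87% of all genes), and a positive log2 fold change for 16 of 17, with a median of 0.80 beside 0.04 over all genes. The lowest p values of the F test belonged to Flna (filamin A, an actin cross-linker that binds integrin tails), Vasp (which drives actin growth at adhesions) and Zyx (zyxin, a protein of focal adhesions). Their differences from Control were 1.18 ± 0.34 for Flna (adjusted p = 0.0645), 1.14 ± 0.37 for Vasp (adjusted p = 0.101) and 1.02 ± 0.36 for Zyx (adjusted p = 0.147). None of the 4 lists had a called gene in the mean of the 3 preparations against Glutamate.

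Likeness of patterns was described by Pearson's r of log2 CPM over the 18 libraries, which share treatment, depth and replicate number, and no test was attached. Spp1 was most like Cd14 (r = 0.960), Plpp1 (r = 0.944) and RT1-Da (r = 0.943). Cd44 was most like Hspa5 (r = 0.957), Rin1 (r = 0.952) and Stat3 (r = 0.949), and Itga5 was most like Prmt3 (r = 0.923), Runx1 (r = 0.921) and Col18a1 (r = 0.920). Itgb1 was nearest to Igf2bp3 (r = 0.967), Faf2 (0.962) and Megf11 (0.958), and Itgav to Dpy19l4 (0.948), Ect2 (0.944) and Pls3 (0.944). Thbs1 was nearest to Ap1s3 (r = 0.923), Gstcd (0.891) and Arl14ep (0.882), and Thbs2 to Scara3 (0.891), Tmed4 (0.886) and Polm (0.830). The nearest genes were Rhog (r = 0.918), Homer3 (0.916) and Fhl3 (0.915) for Sparc, and Tns3 (0.899), Gpr17 (0.896) and Mat2a (0.896) for Sparcl1. Between members, r was highest for Cd44 with Itgb1 (0.875), for Cd44 with Itga5 (0.811) and for Thbs1 with Itgav (0.809). It was lowest for Sparc with Itgav (-0.40) and for Sparc with Sparcl1 (-0.39). The alpha chains Itga5 and Itgav had r = 0.192.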

How the data were processed

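RNA sequencing of 18 libraries, 3 in each of 6 groups named by the labels, was analysed. The authors deposited expected counts per gene, which they estimated with Salmon (mapping mode, Ensembl transcripts of the rat, genome decoy) from reads trimmed by Trimmomatic and Cutadapt and summed to genes with tximport. These values need not be whole and carry no scaling between libraries. The submitters' processing notes name STAR, Salmon and rn6. A Salmon version was not given in the sources used here, which differ on library kit and sequencer. Salmon can share reads among similar transcripts, and overlapping genes may share counts.

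Counts were rounded and tested with edgeR 4.0.16 in R 4.3.3. The filter filterByExpr (minimum count 10, minimum total 15) left 14398 genes. Libraries were scaled by TMM, a mean for each group was estimated from the 18 libraries together, and p values of the quasi-likelihood test received Benjamini-Hochberg adjustment over all tested genes at 0.05. SE is the log2 fold change over the root of the F statistic. Log2 CPM used a prior count of 2. Comparisons of the mean of the 3 preparations with Glutamate and with Memantine were added after seeing the data. The fit was tested on simulated data. rRNA shares rest on 78 rows that RefSeq lists as rRNA. Depth sets the precision. Totals start at 8409574 counts in Control 1, where rRNA took 43.0% and the TMM factor was 0.417, so that the size behind its CPM was smaller.

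The authors' supplement names a day covariate that was removed before ordination, whereas the labels give no day for a library, so that no fit used it. Whether replicate numbers pair libraries was checked by correlating their deviations from group means. In 8 of 15 pairs of groups every r exceeded 0.1, among them Control with Glutamate_vesicles (lowest r 0.209) and Memantine with each of the other groups exposed to glutamate (0.156 or more). The check cannot tell libraries of shared origin from libraries of like RNA quality. For Control, the r of number 3 was -0.117 with Glutamate, -0.454 with Glutamate_secret, -0.2585 with Glutamate_BPC and -0.0019 with Memantine. Shares of rRNA were 6.58% in Control 3, 6.60% in Glutamate_vesicles 3 and 8.82% in Memantine 3. They were 20.4% in Glutamate 3, 26.6% in Glutamate_secret 3 and 20.1% in Glutamate_BPC 3. Alternatives were DESeq2 1.42.0, its size factors, the likelihood-ratio test, no filter, the rRNA share as covariate, the replicate block, only the libraries compared, and each library left out. The replicate block took a shared effect of each number over all libraries of a fit, groups that the numbers do not pair included. All members are named. Of each list the 3 genes with the smallest p of the 6-group F test are named, and per member the 3 genes with the highest r. A result under this rule is not reported here. The members and lists were chosen with earlier results of these data known. Promoters came from RefSeq (GRCr8).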

Additional observations from a re-analysis of the deposited data

Results flagged for a closer look

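In 5 cases, memantine and a preparation differed from Glutamate in opposite directions in every same-numbered pair. Each is a pattern over 3 pairs of libraries, and the values are log2 fold changes against Glutamate, which both sides share. The 9 members were searched in each of the 3 preparations, and the share of all genes with such a pattern was not determined. A lower level in Memantine than in Glutamate in every pair was found for 17% of all genes. The numbers did not pair Glutamate with Glutamate_vesicles (lowest r 0.0046), so that the cases with vesicles rest on a shared number only. Spp1 had -0.40 in Memantine, whereas it had 1.43 with vesicles, 1.56 in Glutamate_secret and 2.02 in Glutamate_BPC. The difference of Spp1 between the mean of the 3 preparations and Memantine was tested, and it was 2.07 ± 1.01 (adjusted p = 0.424), or 2.67 (adjusted p = 0.0226) with the replicate block. Cd44 had -0.76 in Memantine and 0.71 in Glutamate_vesicles. Sparc had -0.25 in Memantine and 0.30 in Glutamate_BPC. For Cd44 and Sparc the difference between these groups was not tested.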

How the results depend on the processing

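Members were re-examined in 575 values of alternatives, which cover Glutamate, Glutamate_vesicles and the 4 glutamate groups against Control, the 3 preparations against Glutamate, and Spp1 against Memantine. Of these, 532 kept direction and side of the threshold, 23 were newly called and 20 changed sign. No member was called in the main fit, so that no call could be lost. For the called other matricellular genes and Msn in the 4 glutamate groups against Control, 29 of 168 such values lost the call. The sign changed for Sparcl1 in the 4 glutamate groups against Control with only the libraries compared (0.0024, against -0.03), for Thbs2 in Glutamate against Control with the rRNA share as covariate (0.062, against -0.08), and otherwise where a library was left out. Ranges over such omissions were -0.23 to 0.11 for Sparcl1 in the 4 glutamate groups and -0.50 to 0.12 in Glutamate_vesicles against Control. In Glutamate against Control they were -0.66 to 1.36 for Itgav, -0.13 to 2.59 for Spp1, -0.13 to 1.69 for Thbs1 and -0.68 to 0.45 for Thbs2. For the Sparc to Sparcl1 ratio they were 0.63 to 1.36 (12 libraries against Control), -0.047 to 1.04 (Glutamate_secret against Glutamate), -0.086 to 1.07 (Glutamate_vesicles against Glutamate) and -0.67 to 0.79 (Memantine against Glutamate). The cause was not tested.

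In the 4 glutamate groups against Control, Itga5 was newly called by DESeq2 (adjusted p = 0.00268), the likelihood-ratio test (0.0143), the rRNA covariate (0.0178), only the libraries compared (0.0339) and the replicate block (0.0306). Cd44 was by DESeq2 (0.0159), the covariate (0.00248) and the block (0.0424), Itgb1 by the covariate (0.0184), and Spp1 by the block (2.75, 0.00725). With the block and without Control 1 and Glutamate_secret 3, the adjusted p was 0.0428 for Spp1, 0.13 for Itga5 and 0.0946 for Cd44. Without the block, leaving out these libraries gave Spp1 an adjusted p of 0.606. The block also called Spp1 in Glutamate_secret (0.0253) and Glutamate_BPC (0.0469) against Control. In Glutamate_vesicles against Control, DESeq2 called Itga5 (0.000937) and Cd44 (0.0292), the likelihood-ratio test called Itga5 (0.00652), and the covariate called Itga5 (0.0487) and Cd44 (0.0334). The covariate also called Cd44 in Glutamate against Control (0.0303). In Memantine against Control, the block turned the log2 fold change of Thbs1 from 0.35 to -0.47 and that of Itgav from 0.31 to -0.31. By correlation, the numbers do not pair Memantine with Control, nor Control with Glutamate, Glutamate_secret or Glutamate_BPC. Libraries of these groups share only a number there.

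Counts of called genes moved more than those of members. In the order DESeq2, likelihood-ratio test, covariate and replicate block, they were 717, 587, 385 and 497 for the 6-group F test (5 without the filter), 232, 45, 32 and 166 for Glutamate, 449, 223, 581 and 700 for Glutamate_secret, 256, 61, 18 and 251 for Glutamate_BPC, and 496, 160, 57 and 538 for Glutamate_vesicles against Control (0 with only the libraries compared). For the 4 glutamate groups they were 1164, 1024, 1554 and 1731 against Control (963 with only the libraries compared; 226 without Control 1 and Glutamate_secret 3, and 1211 with the block there) and 596, 720, 777 and 700 against Memantine (137 with only the libraries compared). For the 3 preparations against Memantine they were 630, 683, 844 and 687 (0 with only the libraries compared). Against Glutamate, DESeq2 called 1 gene in Glutamate_BPC, 3 in Glutamate_vesicles, 2 in Memantine and 2 in the mean of the 3 preparations, the covariate called 3 in Glutamate_secret, 1 in Glutamate_vesicles, 1 in Memantine and 7 in that mean, and the likelihood-ratio test called 2 in Glutamate_vesicles. Leaving out 1 library gave 0 to 500 genes for the 6-group F test, 0 to 2 for Glutamate_vesicles against Control, 0 to 254 for Memantine against Glutamate, 0 to 1426 for the 3 preparations against Memantine, 48 to 519 for the 4 glutamate groups against Control and 0 to 1344 against Memantine. The replicate block changed no other call of a member against Glutamate or Memantine. Low counts limit Thbs2 and Thbs1, and in Control 1 also Spp1, Itga5 and Cd44, with counts of 6, 7 and 11.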
